A study of Rattus norvegicus with 6 samples.

Results

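The cone genes described here are the 10 genes of the cone visual cascade that were listed by name, namely the cone opsins Opn1mw and Opn1sw, the cone arrestin Arr3, the transducin subunits Gnat2, Gnb3 and Gngt2, the phosphodiesterase subunits Pde6c and Pde6h, and the channel subunits Cnga3 and Cngb3. Each had exactly 1 probe row carrying its symbol alone, so all 10 were measured, out of 18166 genes with such a row, and no member was lost to a filter. Retinal RNA was profiled on Affymetrix Rat Gene 2.0 ST arrays, which measure transcripts by hybridization of biotin-labelled cDNA, with 3 arrays of the HCDDP group and 3 of the diabetic group. Both groups were male SD rats, 5 weeks old at the start, that were fed a high fat diet for 4 weeks and made diabetic by streptozotocin injection. The HCDDP group then received Compound Danshen Dripping Pill (CDDP, prepared from Danshen, notoginseng and borneol) by gavage for 12 weeks, at 0.4 g/kg/d, and the diabetic group received saline. The sample labels name the treatment as Danshen with no dose. They give 17 weeks as the age of all 6 samples, which is younger than the schedule above adds up to. In their titles, the diabetic samples carry the word eye and the treated samples carry no tissue. The 6 arrays of the series include none of nondiabetic rats, so the values cannot be set against a healthy retina. Neither the labels nor the methods say that each array held RNA of 1 rat, so the p-values cover no more than the variation among these RNA preparations, part of which may be technical.

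Cones are the photoreceptors of daylight and colour vision. Light converts the opsin to its active form, which activates transducin, and transducin releases the brake on a cGMP phosphodiesterase. As cGMP drops, cation channels of the outer segment close, the cell hyperpolarizes, and arrestin then caps the spent opsin. In the rat, most cones carry the middle-wavelength opsin and a minority the short-wavelength opsin, and rods far outnumber both, so cone transcripts make up a small share of retinal RNA. Crx and Otx2 are homeodomain activators of photoreceptor genes, and the thyroid hormone receptor Thrb and the retinoid receptor Rxrg take part in choosing between the cone opsins.

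The upstream sequences of the opsin genes are shown because these genes carried the largest mean difference of the set (Opn1mw) and the only pair of groups that did not overlap (Opn1sw), and because the regulators above are described further on. They are the 250 bases before the annotated start, written 5′ to 3′ on the gene's own strand, from RefSeq on build GRCr8. That of Opn1mw lies at chrX:157056105-157056354 on the plus strand and that of Opn1sw at chr4:58945826-58946075 on the minus strand. Capitals mark the motifs searched on both strands, which were TAATCC (the core bound by Crx and Otx2), AGGTCA (a nuclear receptor half-site) and TATAAA (the TATA box), and no marked motif overlaps another.
Opn1mw: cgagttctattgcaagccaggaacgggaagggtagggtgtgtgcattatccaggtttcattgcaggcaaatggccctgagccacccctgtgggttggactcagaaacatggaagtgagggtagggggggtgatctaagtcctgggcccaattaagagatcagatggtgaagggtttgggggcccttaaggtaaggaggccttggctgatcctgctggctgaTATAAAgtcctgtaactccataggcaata
Opn1sw: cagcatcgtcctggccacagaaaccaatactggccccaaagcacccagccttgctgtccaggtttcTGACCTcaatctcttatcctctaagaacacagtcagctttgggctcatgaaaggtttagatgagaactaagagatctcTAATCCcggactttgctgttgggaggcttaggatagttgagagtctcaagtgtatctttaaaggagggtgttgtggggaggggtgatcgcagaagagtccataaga
In the Opn1mw sequence, TATAAA began 29 bases before the start. In the Opn1sw sequence, TAATCC began 106 bases before the start, and AGGTCA, read on the opposite strand as TGACCT, began 184 bases before it. Of the 10 genes, 5 had a sequence of this kind, and 1 of the 5 held TAATCC, 1 held AGGTCA and 2 held TATAAA (the other being Pde6h, on the opposite strand). Over 33465 RefSeq promoters of the same length, the shares were 6.34%, 14.1% and 12.9%. A match is a description of the letters and not a bound site.

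The deposited log2 signals of all genes tested had medians of 6.14 to 6.37 per array. The spread of the signal was not even. The distance from the 10th to the 90th percentile was 4.92, 4.94 and 4.48 log2 units on HCDDP arrays 1, 2 and 3, and 5.19, 5.16 and 4.45 on diabetic arrays 1, 2 and 3. Both arrays numbered 3 thus had the narrowest range. Rod genes gave strong signals on every array, with Gnat1, the rod transducin alpha subunit, at 12.7 to 13.3. Genes of neighbouring tissue were also detected, with the lens crystallin Cryba1 at 12.5 to 12.9, the pigment cell enzyme Tyrp1 at 11.3 to 12.03 and the stromal proteoglycan Dcn at 11.5 to 12.3.

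All 10 cone genes had a lower mean in the HCDDP group than in the diabetic group, but none passed the study's threshold (fold change over 1.5 and unadjusted p under 0.05). Their log2 differences (HCDDP minus diabetic) ran from −0.77 for Opn1mw to −0.15 for Cnga3, with a median of −0.40, while the median over all genes tested was −0.01 and that over the 9083 genes above the median signal was −0.05. A mean difference below 0 was found for 51.6% of all genes. It was found for 59% of those above the median signal, where 7 of the 10 cone genes lay. By limma, 2.28% of all genes passed the threshold as lower and 0.925% as higher, beside which the count of 0 among 10 genes is read. At an unadjusted p under 0.05 alone, 1 member, Gnb3, was lower, where 3.51% of all genes were, and by the methods' t-test on the same values the count was 0. With same-numbered arrays treated as blocks it was 4 (Opn1mw, Opn1sw, Gnb3 and Pde6h), where 8.3% of all genes were lower at that p. It was 4 with array weights (11.5% of all genes lower) and 5 without diabetic array 3 (12.2%). Without HCDDP array 2 it was 3 (2.21%), and with quantile normalization (3.79%) or other moderation (3.8%) it was 2. Without HCDDP array 1 it was 1 (3.14%). Without HCDDP array 3, diabetic array 1 or diabetic array 2 it was 0 (1.56% to 1.66%). With all 6 arrays, no member passed after Benjamini-Hochberg adjustment over all genes (lowest adjusted p = 0.782 from limma). That limit was passed as lower by 1 gene, or 0.0055%. The groups did not overlap for 1 member, Opn1sw, where 4.3% of all genes did not overlap as lower and 6.43% as higher. In bulk retina, fewer cones and less cone RNA per cell cannot be told apart.

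**Figure D1:**
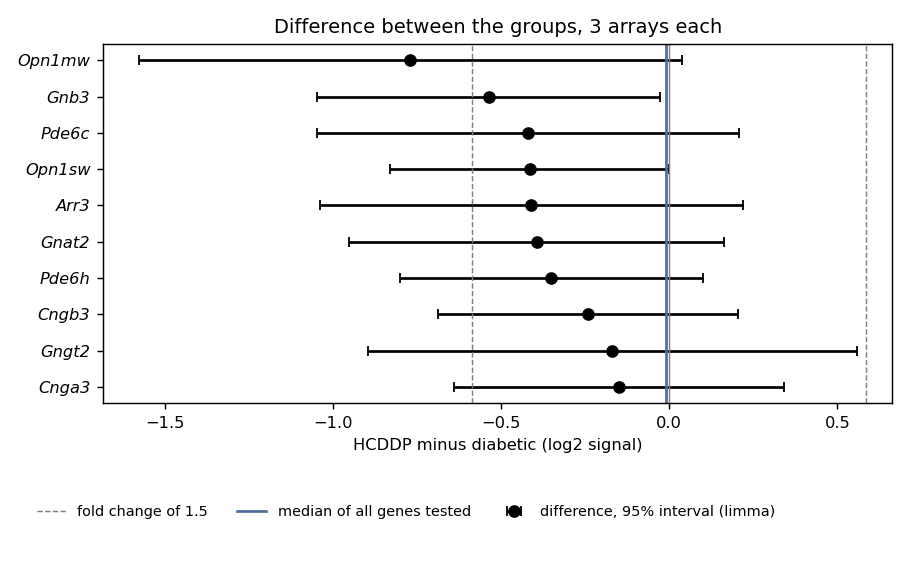
Difference between the HCDDP and diabetic means of each cone gene in log2 signal (points) with the 95% confidence interval from limma (bars), for 3 arrays in each group, beside the median of all genes tested (blue line), 0 (solid grey line) and a fold change of 1.5 (dashed lines). All 10 points lie below 0, from −0.77 to −0.15, and the interval of 1 gene, Gnb3, lies wholly below 0.

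Opn1mw encodes the middle-wavelength opsin. Its log2 signal was 7.96, 8.44 and 8.25 on HCDDP arrays 1, 2 and 3, and 9.19, 9.63 and 8.14 on diabetic arrays 1, 2 and 3. Diabetic arrays 1 and 2 stood above all the others, and diabetic array 3 lay within the HCDDP range, so the groups overlapped. The mean was 8.22 ± 0.24 (SD, n = 3) against 8.99 ± 0.77 (SD, n = 3). The difference of −0.77 (standard error 0.35, 95% confidence interval −1.58 to 0.04), a 1.70-fold lower mean, exceeded the fold limit but not the limit on p (unadjusted p of 0.0592 and adjusted p of 0.782 from limma, exact permutation p = 0.30). With the replicate number as a block, the same difference passed the threshold (unadjusted p of 0.0322 and adjusted p of 0.356 from limma), as 3.47% of all genes did as lower in that fit.

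Opn1sw encodes the short-wavelength opsin, which in rodents is most sensitive to ultraviolet light. Its signal was 7.16, 7.11 and 6.70 on the HCDDP arrays and 7.41, 7.50 and 7.30 on the diabetic arrays. Every HCDDP array lay below every diabetic array. The mean was 6.99 ± 0.25 (SD, n = 3) against 7.40 ± 0.10 (SD, n = 3), a difference of −0.41 (standard error 0.18, 95% confidence interval −0.83 to 0.00092). An exact permutation test gave p = 0.10 (two-sided, 20 assignments, n = 3 in each group), the smallest that this design allows, and limma gave an unadjusted p of 0.0504 and an adjusted p of 0.782.

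The opsins were also compared with each other within each array. The log2 signal of Opn1sw minus that of Opn1mw averaged −1.23 ± 0.39 on the HCDDP arrays against −1.58 ± 0.67 on the diabetic arrays (SD, n = 3 each). The groups overlapped, with −0.80, −1.33 and −1.55 on the HCDDP arrays and −1.78, −2.13 and −0.84 on the diabetic arrays. The difference of 0.36 was within the spread of the arrays (exact permutation p = 0.40, two-sided, n = 3 in each group), so the opsins were not shown to differ from each other between the groups. Without diabetic array 3 it was 0.73, and without diabetic array 2 it was 0.08.

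**Figure D2:**
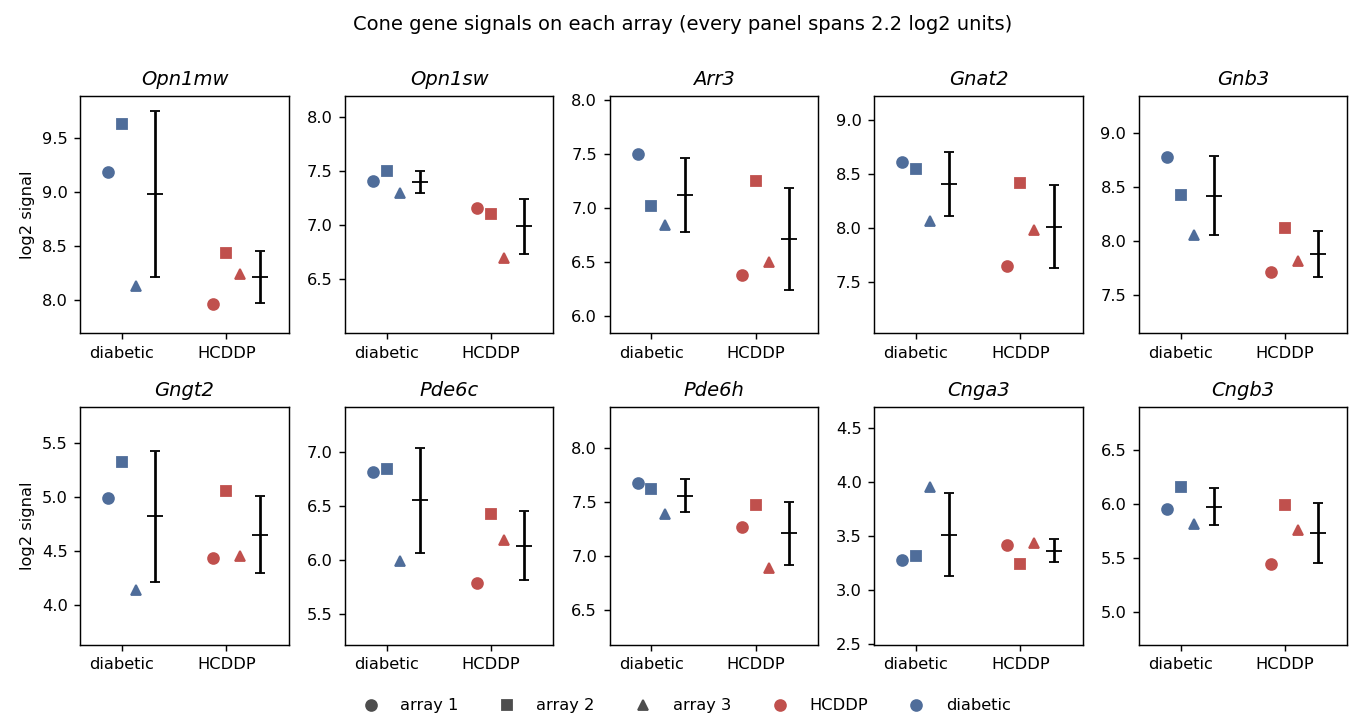
Log2 signal of each cone gene on every array, with diabetic arrays in blue, HCDDP arrays in red, marker shape giving the array number, and black bars the mean with SD (n = 3). Every panel spans the same height, and the groups stand apart in 1 panel, that of Opn1sw.

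The cone transducin genes differed among themselves in the size of the difference. Gnb3 encodes the beta subunit of cone transducin, which ON bipolar cells also use. It was at 7.72, 8.12 and 7.82 on the HCDDP arrays and at 8.78, 8.43 and 8.05 on the diabetic arrays. Diabetic array 3 lay just below HCDDP array 2, which was the only overlap. The difference was −0.54 (standard error 0.22, 95% confidence interval −1.05 to −0.03), a 1.45-fold lower mean, which fell short of the fold limit (unadjusted p of 0.0411 and adjusted p of 0.782 from limma, exact permutation p = 0.20).

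Gnat2, the alpha subunit that carries the signal from opsin to phosphodiesterase, was at 7.64, 8.41 and 7.98 on the HCDDP arrays and at 8.61, 8.55 and 8.06 on the diabetic arrays. HCDDP array 2 reached nearly the level of diabetic arrays 1 and 2. The difference was −0.39 (standard error 0.24, 95% confidence interval −0.95 to 0.16). Gngt2, the gamma subunit, had a weaker signal of 4.44 to 5.06 in the HCDDP group and 4.15 to 5.33 in the diabetic group. Its lowest value belonged to diabetic array 3, and the HCDDP range lay inside the diabetic range. The difference of −0.17 had the interval −0.90 to 0.56.

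Pde6c is the catalytic subunit of the cone phosphodiesterase. Its signal was 5.79, 6.42 and 6.18 on the HCDDP arrays and 6.82, 6.84 and 5.99 on the diabetic arrays. As for Opn1mw, diabetic array 3 fell among the HCDDP arrays. The difference was −0.42 (standard error 0.27, 95% confidence interval −1.05 to 0.21). Pde6h, the inhibitory subunit that holds the enzyme off in the dark, was at 7.27, 7.47 and 6.89 against 7.67, 7.62 and 7.39. The groups overlapped only through HCDDP array 2, which lay above diabetic array 3. The difference was −0.35 (standard error 0.20, 95% confidence interval −0.80 to 0.10).

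Arr3, the cone arrestin that ends the activity of the opsin, was at 6.38, 7.25 and 6.50 on the HCDDP arrays and at 7.50, 7.02 and 6.84 on the diabetic arrays. HCDDP array 2 stood apart from the other HCDDP arrays and exceeded diabetic arrays 2 and 3. The difference was −0.41 (standard error 0.27, 95% confidence interval −1.04 to 0.22). Cngb3, the modulatory subunit of the cone channel, was at 5.45 to 5.99 in the HCDDP group and 5.82 to 6.16 in the diabetic group, with a difference of −0.24 (95% confidence interval −0.69 to 0.20). Cnga3, the subunit that forms the pore, was at 3.24 to 3.44 in the HCDDP group and 3.27 to 3.95 in the diabetic group, with a difference of −0.15 (95% confidence interval −0.64 to 0.34). The mean signal of Cnga3 was at the 8.47th percentile of all genes tested, close to the arrays' 10th percentile.

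Most of the members shared a broad order across the arrays. Diabetic array 2 was the highest array for 5 of the 10 genes, diabetic array 1 for 4 and diabetic array 3 for Cnga3, while no HCDDP array was the highest for any. HCDDP array 1 was the lowest for 6 genes, HCDDP array 3 for 2 (Opn1sw and Pde6h), HCDDP array 2 for Cnga3 and diabetic array 3 for Gngt2. The mean deviation of the 10 genes from their own means was −0.36, 0.07 and −0.28 on HCDDP arrays 1, 2 and 3 and 0.34, 0.36 and −0.11 on diabetic arrays 1, 2 and 3. HCDDP array 2 was above diabetic array 3, as it was for 8 of the 10 genes singly. The distance of a gene's profile from this mean profile (root mean square over 6 arrays, log2 units) was 0.11 for Gnat2 and 0.14 for Gnb3 and Cngb3. It was under 0.25 for 8 genes, and the share of all genes under 0.25 was not computed. Opn1mw at 0.36 and Cnga3 at 0.44 departed most, both by more than the median of 0.35 over all genes. Each cone gene is part of that mean profile, which by itself brings its own profile nearer to it.

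Arrays of the same number were compared in pairs, since their deviations from the group means correlated across genes. Such correlations were not computed for arrays of different numbers, and neither labels nor methods state a pairing. The correlation was highest for the arrays numbered 3, which had the narrowest signal range, and the part of that range in it was not tested. In the pair numbered 1, 9 of the 10 genes were lower on the HCDDP array, with a median difference of −0.76. In the pair numbered 2, 9 were lower, with a median of −0.22. In the pair numbered 3, 7 were lower, with a median of −0.16. Over all genes, 52.7%, 50.2% and 49.6% were lower on the HCDDP array in these pairs. Opn1sw, Gnat2, Gnb3, Pde6h and Cngb3 were lower in all 3 pairs. Opn1mw differed by −1.23 and −1.19 in the pairs numbered 1 and 2 and by 0.11 in that numbered 3, and Opn1sw by −0.25, −0.40 and −0.60.

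Which members passed the threshold depended on single arrays. Without diabetic array 3, 3 of the 10 passed, namely Opn1mw at −1.19, Gnb3 at −0.72 and Pde6c at −0.70, and Opn1mw also passed after adjustment (adjusted p = 0.041 from limma, against 0.782 with all arrays), as did 311 of the 18166 genes, against 1 with all arrays. That fit placed 8.21% of all genes past the threshold as lower. Without HCDDP array 2, 3 passed, namely Gnb3 again at −0.66, Arr3 at −0.68 and Gnat2 at −0.60, where 1.78% of all genes were lower, and none of the 10 did after adjustment (lowest adjusted p = 0.896 from limma). When any 1 of the remaining arrays was left out, the count stayed at 0. With diabetic array 3 and HCDDP array 3 both left out, a setting added once the values were known, Opn1mw, Gnb3 and Pde6c passed, where 6.19% of all genes did as lower. Gngt2 turned to 0.084 without diabetic array 2, and Cnga3 to 0.070 without diabetic array 3.

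**Figure D3:**
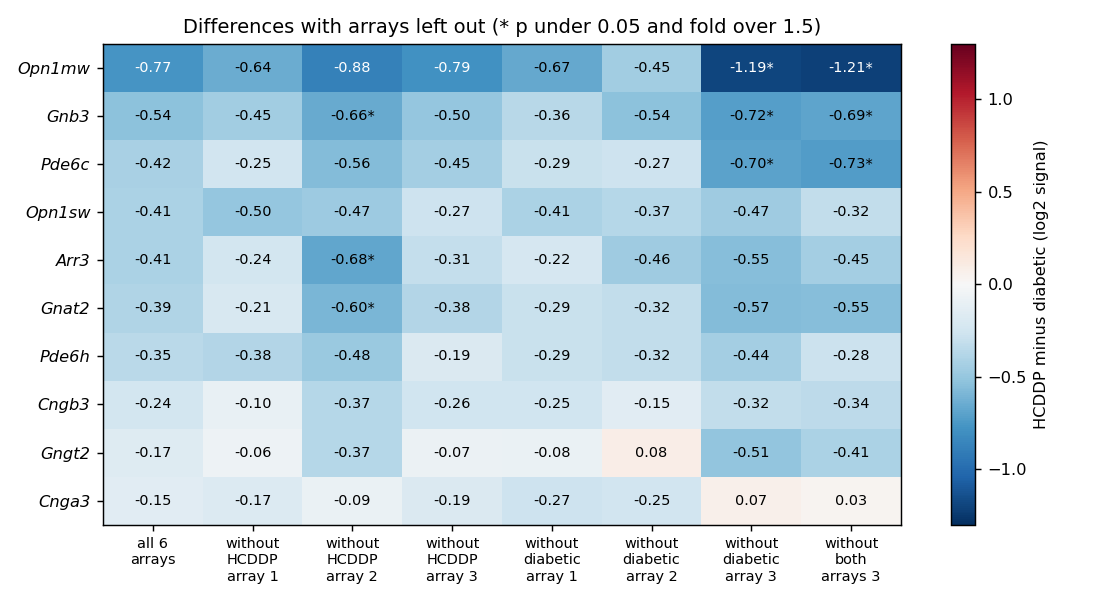
Log2 difference (HCDDP minus diabetic) of each cone gene with all arrays and with arrays left out, as colour and number, with an asterisk where p was under 0.05 and the fold over 1.5. Opn1mw ran from −0.45 without diabetic array 2 to −1.21 without both arrays numbered 3, and the values of Gngt2 and Cnga3 crossed 0.

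Other proteins of the cone cascade, most of them shared with rods, were described from a list of 15 genes, of which 14 were measured. Of these, 10 had a lower mean in the HCDDP group, 1 passed the threshold as lower and none as higher, and the median difference was −0.26. Over all genes, 51.6% had a lower mean and 2.28% passed as lower, shares that also stand beside the counts of the next lists. The gene of this list that passed was Kcnv2, a modulatory potassium channel subunit of both photoreceptor types. Its signal was 7.76, 8.17 and 7.30 on the HCDDP arrays and 8.45, 8.66 and 8.35 on the diabetic arrays, so the groups did not overlap. The difference was −0.75 (standard error 0.24, adjusted p = 0.782 from limma), and without HCDDP array 3 it was −0.52, short of the fold limit. By the methods' t-test Kcnv2 did not pass. The guanylate cyclase activator Guca1a was at −0.35, the phosphodiesterase chaperone Aipl1 at −0.47 and Gnb5, which stabilizes the GTPase-activating complex that switches transducin off, at −0.45, none of which passed. Grk1, the opsin kinase, was at 0.03 and Rgs9, the GTPase activator, at 0.09.

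Among 11 regulators of cone and photoreceptor fate, all measured, 10 had a lower mean in the HCDDP group, 1 passed as lower and none as higher, and the median difference was −0.22. Otx2 passed, with 10.4, 10.6 and 10.3 on the HCDDP arrays against 11.4, 11.4 and 10.4 on the diabetic arrays. As for Opn1mw, diabetic arrays 1 and 2 were high and diabetic array 3 lay within the HCDDP range. The difference was −0.66 (standard error 0.28, adjusted p = 0.782 from limma). It no longer passed without any one of the HCDDP arrays or without diabetic array 1 or 2 (−0.73 to −0.48), nor by the methods' t-test. Crx was at −0.49 and Neurod1, a photoreceptor differentiation factor, at −0.79, with standard errors of 0.25 and 0.40, and neither passed. With the replicate block, Neurod1 passed (adjusted p = 0.356 from limma) and Crx did not. Of the receptors named above, Thrb was at −0.07 (95% confidence interval −0.44 to 0.30) and Rxrg at −0.39 (95% confidence interval −0.92 to 0.13). Sall3, a zinc finger regulator, was the 1 gene with a higher mean, at 0.34.

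The rod genes of the same cascade steps had a smaller median difference than the cone genes, at −0.21 over 8 measured genes of 11 listed, of which 7 had a lower mean and none passed the threshold. The rod arrestin gene Sag was at −0.44 (standard error 0.18) and Gnat1 at −0.34 (standard error 0.17). The mean deviation of the cone genes minus that of the rod genes was −0.15, −0.05 and −0.02 on HCDDP arrays 1, 2 and 3 and 0.23, −0.01 and −0.00052 on diabetic arrays 1, 2 and 3. Apart from HCDDP array 1 and diabetic array 1, the cone and rod genes thus deviated by nearly the same amount. The difference between the lists was not tested.

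Over all genes, 51.6% had a lower mean in the HCDDP group, as had 59% of those above the median signal. Past the threshold were 2.28% of all genes as lower and 0.925% as higher. The lists are short, and their counts were not tested against these shares. Markers of other retinal cells also tended to lower means in the HCDDP group on most lists. This was so for 10 of 11 measured bipolar markers (median −0.16), of which Pcp2, a marker of rod bipolar cells, passed at −1.18, and for 11 of 12 amacrine and ganglion markers (median −0.17), of which none passed and Slc6a9 and Gad1 had the lowest p. Of the Müller markers 5 of 7 had lower means (median −0.33), among them Vim and Dkk3, and of the vascular markers 4 of 5 (median −0.33), of which Pdgfrb passed at −0.61. The horizontal cell list, with 2 of 6 lower and a median of 0.09, went the other way, and none of its genes passed. Its genes of lowest p were Septin4, which was lower at −0.38, and Onecut2, which was higher at 0.28. Outside the neural retina, 8 of 9 pigment epithelium markers had lower means (median −0.22), with Mlana and Rgr the nearest to the threshold, as had 5 of 6 lens markers (median −0.24), with Crygb and Cryba1, and none passed on either list. Of 9 stroma markers 7 had lower means (median −0.45), and Kera, Prelp and Fmod passed. Of 7 microglia markers 5 had lower means (median −0.12), and Cx3cr1 passed as higher at 0.65. Of these genes, Kera, Prelp and Fmod passed whichever array was left out. Pcp2 no longer passed without HCDDP array 3 (−0.92), diabetic array 1 (−0.99) or diabetic array 2 (−0.93), Pdgfrb without HCDDP array 3 (−0.44) or diabetic array 1 (−0.50), or with the arrays median centred (−0.58) or quantile normalized (−0.55), and Cx3cr1 without HCDDP array 2 (0.52). By the methods' t-test, Kera, Prelp, Fmod and Cx3cr1 passed, and Pcp2 and Pdgfrb did not. The part of other cell types, and of the narrower signal range of the arrays numbered 3, in the differences of the cone genes was not tested. After quantile normalization, which gives every array the same range, the median of the 10 cone genes was −0.34 and their count past the threshold stayed at 0.

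The mean level of the lists was also set out by array. The mean deviations of the bipolar markers were −0.21, 0.12 and −0.32 on the HCDDP arrays and 0.28, 0.30 and −0.16 on the diabetic arrays, in nearly the order of the cone genes. Those of the lens markers were −0.47, 0.39 and −0.26 against −0.27, −0.04 and 0.64, with diabetic array 3 highest. Those of the pigment epithelium markers were −0.14, −0.01 and −0.13 against 0.01, 0.40 and −0.11. The stroma markers were at −0.07, −0.07 and −0.43 against 0.15, 0.19 and 0.23, with no overlap between the groups.

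**Figure D4:**
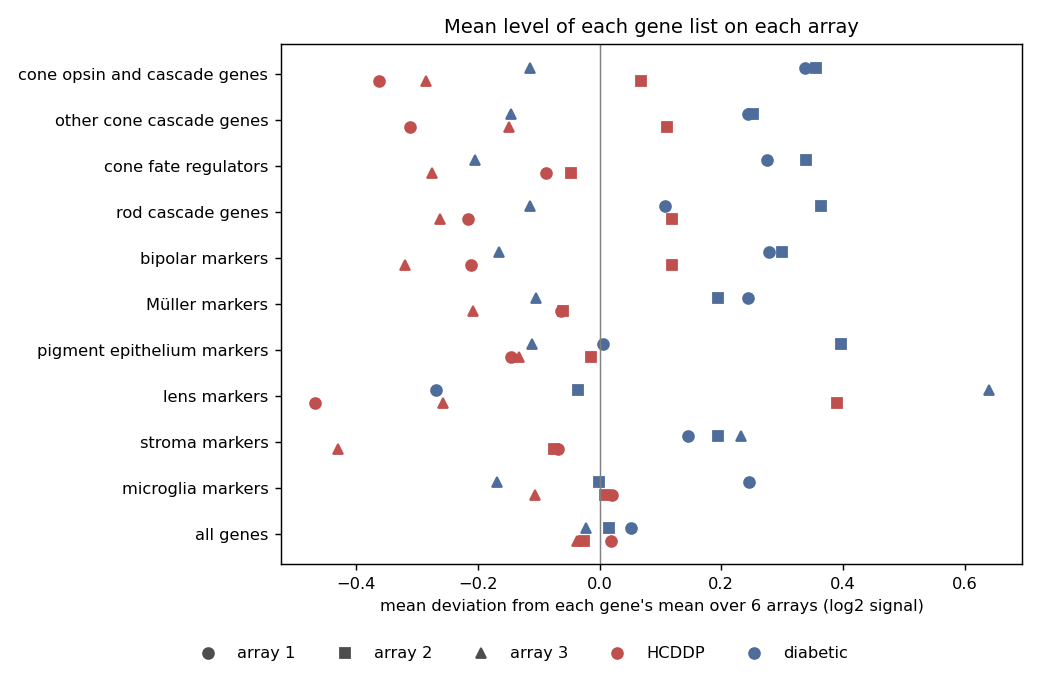
Mean deviation of the genes of each list from their own means over 6 arrays, in log2 signal, on each diabetic (blue) and HCDDP (red) array, with marker shape giving the array number. The cone, rod and bipolar lists are highest on diabetic array 2 and have diabetic array 3 below HCDDP array 2, as several other lists do, while the lens list is highest on diabetic array 3, at 0.64.

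Outside these lists, the 5 genes of profile nearest to the cone gene mean over the 6 arrays were Clcn6, Lrrtm2, Smarcd1, Gtpbp8 and Parp6. Their root mean square distances were 0.032 to 0.049 log2 units. The median distance was 0.35 over all genes and 0.18 over the cone genes, each of which is part of the mean profile. The differences of the 5 genes ran from −0.33 for Smarcd1 to −0.40 for Lrrtm2, and none passed the threshold. These genes were picked from 18051 by their profile over 6 arrays, so their closeness is a description.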

How the data were processed

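Retinal RNA of 3 HCDDP and 3 diabetic samples was hybridized to 1 array each. Scans were processed in Expression Console Software 1.41, and the authors deposited log2 signals for 36685 probe rows. Not given in the sources used here were the background correction, normalization and summarisation. A platform annotation gave 1 symbol for 18511 rows, several for 575 and none, here, for 17599. Symbols were checked by gene identifier (18394 rows matched), and the row with the highest mean was kept per gene, without a filter on weak signals.

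Groups were compared with limma 3.58.1 in R 4.3.3 (lmFit, eBayes), with Benjamini-Hochberg adjustment over 18166 genes, and the fold change was taken from mean log2 signals. Single values were also tested by exact permutation. The test was tried on simulated data. Arrays give no counts, so their number limits the precision. Named genes were the 10 members, genes of each list past the threshold (or the 2 of lowest p), and 5 genes of nearest profile, and the few others named were chosen after their values were seen. Members and lists were chosen with earlier results of these data known. Same-numbered arrays correlated at 0.274, 0.292 and 0.445 after group means were removed, the basis for the replicate block, as neither labels nor methods state a pairing. The alternatives were the methods' t-test, other moderation, array weights (statmod 1.5.0), median centring, quantile normalization, all rows with 1 symbol, genes above the median signal, the block, a fold from linear signals, and arrays left out. Figures used matplotlib 3.10.9.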

Additional observations from a re-analysis of the deposited data

How the results depend on the processing

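The median difference of the cone genes stayed below 0 in every alternative run, from −0.53 to −0.25 with single arrays left out. The count of cone genes past the threshold was 0 in the limma fit of all 6 arrays. It was 1 (Opn1mw) with the replicate block and with array weights, and 0 to 3 with single arrays left out. With both arrays numbered 3 left out, a setting added once the values were known, it was 3. The block changed no other call among the 10, and of the other list genes it changed that of Neurod1, which passed with it. Of the single genes, Gngt2 reversed to 0.084 without diabetic array 2 (lowest −0.51, without diabetic array 3), and Cnga3 to 0.070 without diabetic array 3 (lowest −0.27, without diabetic array 1) and to 0.032 without both arrays numbered 3. Over all genes, 168 were higher and 414 lower in the limma fit of all 6 arrays. These are counts of the present fit and not those the study published. The methods' t-test gave 88 and 108, array weights 299 and 1063, and the fit without both arrays numbered 3 gave 358 and 1124. Genes above the median signal gave 49 higher, the replicate block 631 lower, and single arrays left out 112 to 493 higher and 185 to 1491 lower. The cause was not tested. The opsin contrast stayed above 0, from 0.08 to 0.73.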
